A study of Mus musculus with 69 samples.

Results

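Embryoid bodies grown with the solvent dimethyl sulfoxide (DMSO) were compared between day 4 and day 8 of differentiation. They are 4 of the 69 samples of the series and 4 of its 42 RNA-seq samples, with 2 libraries at day 4 and 2 at day 8, chosen by their labels. The cells are CJ7, a long-established line of embryonic stem (ES) cells from the mouse, carrying no mutation of EZH2 that the labels name. DMSO was present from 3 days before differentiation began until collection, in a volume matched to the drug arm of the same experiment, in which 4 µM GSK343, an inhibitor of EZH2, was added instead. The ES cells had been kept on PMEF-N feeder cells with LIF and serum, and embryoid bodies, which are aggregates of differentiating cells, formed in hanging drops in IMDM with serum and without LIF. DMSO ES cells, the GSK343 embryoid bodies of day 4 and day 8 (4 libraries) and untreated wild-type embryoid bodies of the same days (6 libraries) serve as points of reference. The labels do not say whether libraries of a group came from separate cultures, so p-values measure a spread between libraries that may be technical. For the DMSO step that spread was estimated over all 12 libraries of its table, ES cell and GSK343 libraries included. It is not the spread of the 4 DMSO libraries alone.

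Embryoid bodies follow, loosely and without a body plan, the order of early mouse development. Cells leave the naive state of the ES cell, pass through a formative state like that of the epiblast after implantation, and are then directed by Nodal, Wnt, BMP and FGF signals through a primitive streak-like stage into mesoderm and endoderm. Mesoderm gives heart muscle, blood, vessels and connective tissue, and the outer layer can form extraembryonic endoderm. Many regulators of these fates carry H3K27me3, the repressive histone mark made by Polycomb repressive complex 2 (PRC2), before they are used.

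Values are RPKM, reads scaled to gene length and library depth, as the authors deposited them. Depth, in reads assigned to genes, was 17.7 M and 21.6 M at day 4 and 16.4 M and 17.5 M at day 8 (M, mega) against 5.01 M to 22 M over the 12 libraries of the table. Across genes the day 4 libraries correlated at r = 0.994 and the day 8 libraries at r = 0.988. Among the reference libraries, GSK343 day 8 library 1 correlated less with its partner (r = 0.971) than with GSK343 day 4 library 1 (r = 0.988), and the third wild-type day 8 library correlated at r = 0.904 and 0.897 with the other 2. Total counts of called genes and group medians quoted in the text for the GSK343 and wild-type steps are given with and without them. Counts for the DMSO step also draw on GSK343 day 8 library 1, through the shared spread, and were not refitted without that library.

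Of 14016 genes with at least 0.5 RPKM in 2 or more libraries, 3262 (23.3%) were higher and 2536 (18.1%) were lower at day 8, together 41.4%. Here and below a gene is called higher or lower, or is said to have risen or fallen, where the Benjamini-Hochberg adjusted p of limma, a linear model fitted across all genes on log2(RPKM + 1), was under 0.05. Fold changes on that scale understate the change of genes with low values. Fitted to the DMSO day 4 and day 8 libraries alone, the model called 3993 genes higher and 3306 lower. Over all genes tested the median log2 fold change was 0.05, and 1385 called genes rose and 826 fell by more than 1 log2 unit. Centring every library on its median lowered each log2 fold change by the same amount (a shift of -0.18) and changed the split to 2386 higher and 3720 lower, 39.1% higher in place of 56.3%, so changes smaller than this shift are given no direction. Counted without a test, day 8 lay above day 4 in both libraries for 42.1% of genes and below it for 36.2%.

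The gene that rose furthest was Hbb-bh1, the embryonic beta-type globin of primitive red cells. It had no read in either day 4 library and reached 156 and 525 RPKM at day 8. Set against the mean of a floor of 3 reads per day 4 library this is at least 616-fold higher in day 8 library 1 and at least 2073-fold in library 2 (log2 change 8.17 ± 0.48 SE, limma adjusted p = 1.5e-06). Both day 8 libraries were far above day 4, and library 2 held the higher level. H19, an imprinted long noncoding RNA, went from 7.03 and 5.77 RPKM to 847 and 1359 RPKM (7.19 ± 0.38), and Igf2, the growth factor gene beside it, from 0.475 and 0.481 to 116 and 173 (6.59 ± 0.26). For both genes the call held when any 1 DMSO library was left out, and library 2 was the higher day 8 library.

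The other rises among the 12 largest joined signalling, heart, muscle and endoderm genes. Nrp1, a co-receptor for VEGF and semaphorins, rose from 0.411 and 0.282 RPKM to 101 and 136. Cfc1, the EGF-CFC co-receptor Cryptic used by Nodal-type ligands, rose from 0.273 and 0.447 to 114 and 105. Tnni1, the slow skeletal and embryonic cardiac troponin I, rose from 0.102 and 0.0832 to 41.8 and 81.5. In these 3 genes both day 8 values were far above both day 4 values. Hand1 (0.179 and 0.0733 to 55.7 and 62.6 RPKM) and Hand2 (0 and 0.0415 to 42.2 and 50.3 RPKM), bHLH factors of lateral and cardiac mesoderm, had log2 changes of 5.74 ± 0.20 and 5.53 ± 0.14, among the most even between libraries. Capn6, Anxa2, Ttr and Acta2 completed the set, with log2 changes of 5.60, 5.59, 5.19 and 5.12. Ttr encodes the thyroxine carrier transthyretin, and Acta2 smooth muscle actin.

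The 12 largest falls included genes of the epiblast-like state. Foxd3, a forkhead factor of the epiblast and neural crest, dropped from 37.8 and 39.2 RPKM to 0.616 and 0.216 (log2 change -4.82 ± 0.36, limma adjusted p = 6.4e-06). Dnmt3b, a de novo DNA methyltransferase, was the most abundant gene of the set but 1, with 815 and 851 RPKM at day 4 against 38.9 and 27.2 at day 8 (-4.63 ± 0.55). Pou3f1, the POU factor also known as Oct6, went from 68.9 and 74.1 to 3.3 and 3.37 RPKM. All 3 had been lower in DMSO ES cells, at 5.53 and 4.87, 31.2 and 16.5, and 5.98 and 3.66 RPKM, so these falls start from a level reached by day 4. The largest fall was that of Trh, the thyrotropin-releasing hormone precursor, from 769 and 1029 to 41.7 and 16.1 RPKM (-5.04 ± 0.52). The rest of the set were Slc27a2 (-4.99), Platr10 (-4.79), Pdzd4 (-4.60), Lefty1 (-4.56), L1td1 (-4.44), Pim2 (-4.39), Cbr3 (-4.24) and Utf1 (-3.98).

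**Figure D1:**
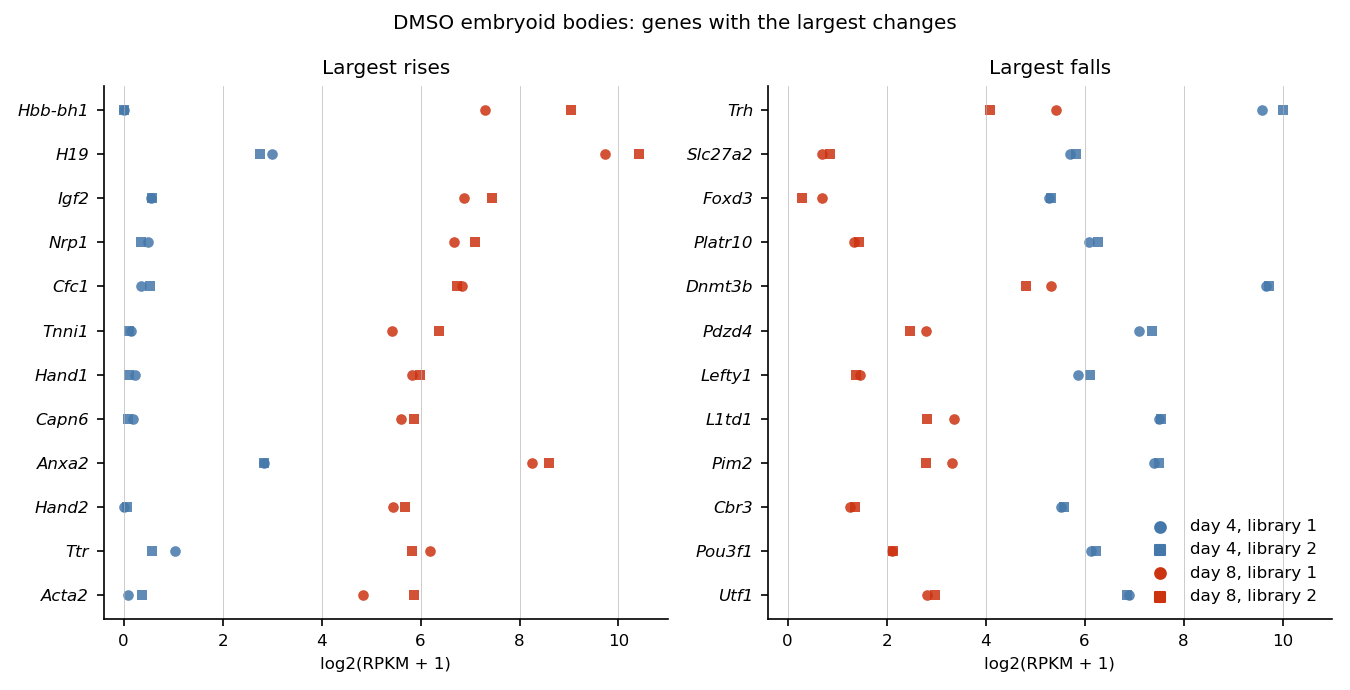
Level of the 12 genes with the largest rises and the 12 with the largest falls, on an axis of log2(RPKM + 1), in the 2 day 4 libraries (blue) and the 2 day 8 libraries (red), with circles for library 1 and squares for library 2. The genes were chosen to have no overlap between the colours, and the day 8 libraries differ most from each other for Hbb-bh1 and Trh.

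The blood, cardiac muscle and pluripotency groups are represented by the promoters of Hba-x, the embryonic alpha-type globin, Tnni1 and Foxd3, each the furthest-moving member of its group with an entry in the RefSeq promoter table. They are shown because the windows differ in base composition and in the H3K27me3 that the authors found there in wild-type cells. Each is the gene's strand, 5′ to 3′, from 250 bases before to 50 after the annotated start, from RefSeq on GRCm38.p6 (mm10). Capitals mark matches on either strand to GATAA (bound by GATA factors), CACCC (bound by Krüppel-like factors), TATAAA (the TATA box) and ATGCAAAT (the octamer bound by POU factors). Hba-x lies at chr11:32276350-32276649, Tnni1, by the first of 2 starts in the table, at chr1:135799171-135799470, and Foxd3 at chr4:99656049-99656348, all on the + strand.
Hba-x: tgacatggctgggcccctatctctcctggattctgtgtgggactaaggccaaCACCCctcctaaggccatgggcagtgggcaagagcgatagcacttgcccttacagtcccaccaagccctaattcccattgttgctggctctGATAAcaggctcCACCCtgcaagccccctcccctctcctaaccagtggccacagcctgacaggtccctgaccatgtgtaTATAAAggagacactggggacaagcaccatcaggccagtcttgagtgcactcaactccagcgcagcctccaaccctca
Tnni1: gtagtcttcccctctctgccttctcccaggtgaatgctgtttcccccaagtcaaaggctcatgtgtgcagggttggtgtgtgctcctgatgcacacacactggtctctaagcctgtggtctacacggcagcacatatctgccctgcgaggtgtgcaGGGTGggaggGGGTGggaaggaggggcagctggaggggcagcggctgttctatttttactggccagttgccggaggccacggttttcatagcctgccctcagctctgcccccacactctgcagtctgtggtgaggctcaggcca
Foxd3: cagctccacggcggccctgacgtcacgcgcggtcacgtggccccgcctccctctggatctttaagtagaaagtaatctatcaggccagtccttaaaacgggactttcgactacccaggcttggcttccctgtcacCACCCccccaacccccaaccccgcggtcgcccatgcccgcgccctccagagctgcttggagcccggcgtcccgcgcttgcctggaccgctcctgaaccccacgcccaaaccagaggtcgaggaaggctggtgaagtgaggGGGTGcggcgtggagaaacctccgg
The Hba-x window held GATAA at position -107 from the start, CACCC at -198 and -95 and TATAAA at -28, and 2 CpG dinucleotides. In the Tnni1 window CACCC matched on the opposite strand at -94 and -84, with 5 CpG, and in the Foxd3 window at -115 and, on the opposite strand, at 25, with 25 CpG. Of 32851 promoter windows of this length, 25.4% held GATAA, 57.5% CACCC, 13.6% TATAAA and 1.74% the octamer, which was in none of these 3 windows. A merged wild-type H3K27me3 peak of the authors covered the Hba-x start (chr11:32268307-32312159) and the Foxd3 start (chr4:99644515-99666250), and none lay within 1 kb of the Tnni1 start.

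Naive and general pluripotency genes fell at day 8. Of 36 tested members, 25 fell and 3 rose, with a median log2 change of -1.21 against 0.05 over all genes. Pou5f1, the POU factor Oct4 that maintains the pluripotent state, measured 524 and 646 RPKM at day 4 and 60.9 and 54.5 at day 8 (-3.31 ± 0.17, limma adjusted p = 5.4e-07). At day 4 it had been at the level of DMSO ES cells, 535 and 591 RPKM. Sox2 fell from 127 and 96.7 to 16.7 and 19.3 RPKM (-2.56 ± 0.17), from a day 4 level already below the 345 and 319 RPKM of ES cells. Nanog measured 27.5 and 35.7 at day 4 against 9.56 and 7.88 at day 8 (-1.74 ± 0.25), and L1td1, an RNA-binding protein of ES cells, 181 and 187 against 9.31 and 6.01. The day 8 libraries were below the day 4 libraries for all 4 of these genes. Klf4, Tbx3 and Tet2 were the 3 members that rose, from 1.58 and 1.1 to 6.4 and 4.51 RPKM, from 1.07 and 0.7 to 10.5 and 5.92, and from 2.27 and 1.69 to 9.11 and 7.07. Each of these 3 is also used in later tissues and remained below its ES cell level.

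Formative and primed pluripotency genes, those of the epiblast-like state, had the lowest median of all groups with at least 10 tested members. Of 19 tested members 14 fell and 1 rose, with a median of -2.45. Fgf5, a marker of the epiblast, measured 24.9 and 26.9 RPKM at day 4 and 1.07 and 0.455 at day 8 (-3.95 ± 0.41, limma adjusted p = 5.8e-05), and Otx2, a homeobox factor of the epiblast and forebrain named after its values were seen, 61.3 and 60.5 against 8 and 7.52. Nodal went from 33.4 and 39.7 to 4.5 and 3.73 RPKM. Cdh2, N-cadherin, was the member that rose, from 3.95 and 3.43 to 21.6 and 15.1 RPKM. The mean over the 19 members on the log2(RPKM + 1) scale was 3.20 and 2.92 in DMSO ES cells, 5.27 and 5.29 at day 4 and 3.34 and 2.99 at day 8, so both neighbouring stages lay below day 4. For the 36 pluripotency genes the same mean went from 5.75 and 5.67 through 4.28 and 4.08 to 2.86 and 2.56. These RNA pools are bulk, so fewer cells of a type and less RNA per cell cannot be told apart.

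**Figure D2:**
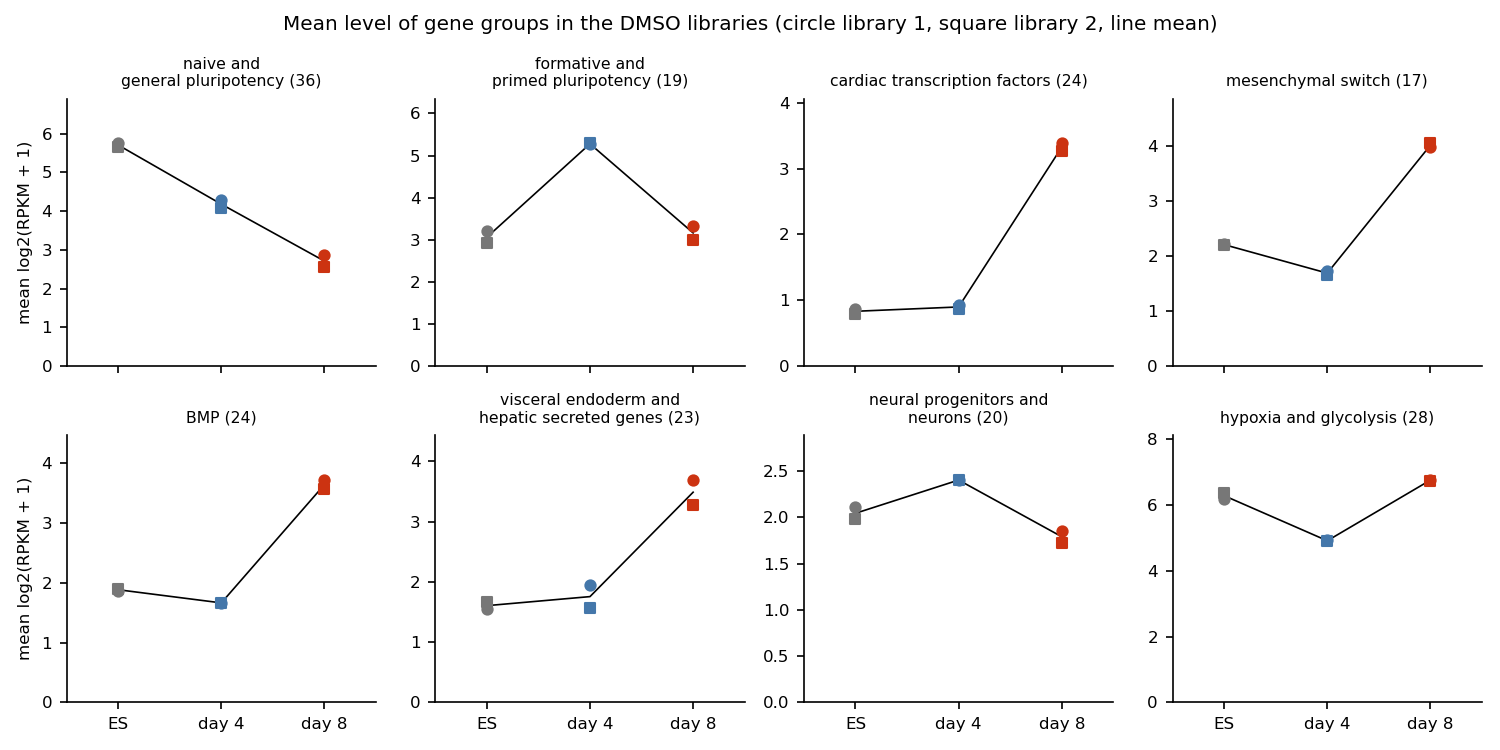
Mean log2(RPKM + 1) over the tested members (number in brackets) of 8 gene groups in the DMSO ES cell, day 4 and day 8 libraries; points are single libraries and the line joins the means of 2. Formative genes peak at day 4 at 5.27 and 5.29, while cardiac factors stay near 0.9 until day 4 and reach 3.38 and 3.27 at day 8.

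In the Nodal and TGF-beta group, 11 of 24 tested members rose (7 without day 4 library 2) and 5 fell. With all libraries the shares were 45.8% and 20.8%, beside the 23.3% and 18.1% of all genes. The falls included Nodal itself, its antagonists Lefty1 (57 and 68 RPKM to 1.77 and 1.62) and Lefty2 (38.2 and 41.3 to 2.7 and 1.27), and the related ligand Gdf3 (19.6 and 18.5 to 1.43 and 1.61). Those that rose included the ligands Tgfb1 (1.3 and 1.09 to 21.7 and 19.8) and Tgfb2 (0.174 and 0.152 to 17.7 and 13.3), the co-receptor Tgfbr3 and the signal transducer Smad3. Tgfb3, the third TGF-beta ligand and named after its values were seen, did not pass the test (log2 change 0.30, limma adjusted p = 0.17).

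BMP pathway genes, which pattern ventral and extraembryonic mesoderm, were higher at day 8 in 18 of 24 tested members and lower in 1, with a median log2 change of 1.75. Among the ligands, Bmp4 rose from 1.93 and 2.52 to 68.7 and 59 RPKM (4.33 ± 0.28, limma adjusted p = 2.4e-06), Bmp5 from 0.0444 and 0.0242 to 23.2 and 26 (4.63 ± 0.12) and Bmp2, named after its values were seen, from 0.127 and 0.104 to 21.9 and 15. The targets Msx2 (0.288 and 0.193 to 38.6 and 35.9 RPKM) and Smad6 (1.43 and 1.56 to 33.3 and 32.4 RPKM), the second also an inhibitor of the pathway, rose beside the ligands, as did Id1, Id2 and Id3, targets named after their values were seen, by 2.17, 2.68 and 2.25. The antagonist Nog rose from 0.501 and 0.193 to 14.3 and 12.1 RPKM. Bmpr1b, a type I receptor, was the member that fell, from 1.47 and 1.31 to 0.255 and 0.101 RPKM.

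FGF genes moved both ways, with 7 of 22 tested members higher and 8 lower at day 8. These are shares of 31.8% and 36.4%, beside the 23.3% and 18.1% of all genes. The ligands of the pluripotent and epiblast states fell, Fgf4 from 30.9 and 30.6 to 3.8 and 3.1 RPKM beside Fgf5, and so did the ERK-responsive factors Etv4 (-2.32) and Etv5 (-2.45). Receptors rose, Fgfr3 from 0.336 and 0.387 to 24.3 and 38.1 RPKM and Fgfr2 from 2.72 and 2.76 to 21.5 and 17.1, with the mesodermal ligands Fgf10 (1.91) and Fgf3 (2.04). The count that rose was 4 without day 4 library 1, without day 4 library 2 or without day 8 library 1. In the day 8 pair, 21 of the 22 members were higher in library 1, against 47.9% of all genes tested.

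Of 34 canonical Wnt genes tested, 11 rose and 5 fell, shares of 32.4% and 14.7% beside the 23.3% and 18.1% of all genes. The ligand Wnt2, expressed in cardiac and lung mesoderm, went from 0.0803 and 0.0219 to 10.8 and 22 RPKM (3.97 ± 0.24), the antagonist Dkk1 from 0.405 and 0.166 to 12.2 and 12.6 (3.39 ± 0.28), and the receptors Fzd4 and Fzd1 rose by 2.16 and 1.76. Fzd5, Nkd2, Lgr4 and the antagonist Sfrp2 fell, with log2 changes of -1.33, -1.18, -1.20 and -1.91. In the planar polarity group 5 of 20 rose and 5 fell, shares of 25% each, near the 23.3% and 18.1% of all genes. The noncanonical ligands Wnt5a (0.0629 and 0.14 to 9.19 and 5.21 RPKM) and Wnt11 (0.676 and 0.597 to 6.63 and 6.16 RPKM) were among the rises, while the count of falls, with Celsr3 first, was 1 or 2 when any 1 DMSO library was left out.

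For Hedgehog 7 of 14 tested members rose and 2 fell (1 without either day 4 library or day 8 library 2), for Notch 6 of 17 rose and 2 fell (1 when any 1 of the 4 libraries was left out), and for retinoic acid 8 of 16 rose and 2 fell (1 when any 1 of the 4 libraries was left out). With all libraries the shares that rose were 50%, 35.3% and 50%, beside the 23.3% of all genes. The shares that fell, 14.3%, 11.8% and 12.5%, were no higher than the 18.1% of all genes. Foxf1, a mesodermal Hedgehog target, rose from 0.0701 and 0.0765 to 13 and 13.8 RPKM (3.75 ± 0.11, limma adjusted p = 1.7e-08). The ligand Shh reached 2.08 and 1.39 RPKM from 0.0212 and 0. Hey2, a Notch-responsive factor of heart and vessels, rose from 0.201 and 0.238 to 8.82 and 7.27. Aldh1a2, the main retinoic acid synthesising enzyme of the embryo, rose from 0.225 and 0.184 to 5.27 and 2.67, and Rarb, a receptor that is also a target, from 0.18 and 0.147 to 3.29 and 3.41.

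Primitive streak and mesendoderm genes, which mark the first mesoderm and endoderm progenitors, rose in 12 of 26 tested members and fell in 3, with a median of 0.63. The count that rose was 6 without day 4 library 1, without day 4 library 2 or without day 8 library 1. Mesp1, a bHLH factor at the head of the cardiac mesoderm, rose from 0.105 and 0.043 to 60.1 and 14.7 RPKM (4.85 ± 0.52, limma adjusted p = 7.5e-05). Brachyury (T), the T-box factor that defines the streak, measured 0.858 and 1.04 at day 4 and 37.1 and 10.8 at day 8 (3.44 ± 0.90, adjusted p = 0.012). Its adjusted p was 0.056 without day 4 library 1, 0.051 without day 4 library 2 and 0.098 without day 8 library 1. Mixl1 (0.792 and 0.648 against 1.92 and 0.174 RPKM, adjusted p = 0.85) and Eomes (7.53 and 9.53 against 6 and 1.3 RPKM, adjusted p = 0.055) did not pass the test, and for Mixl1 the day 4 values lay between those of day 8. Pdgfra and Kdr, receptors of early mesoderm, rose from 0.894 and 0.221 to 23.5 and 25 RPKM and from 0.133 and 0.0725 to 27.7 and 22.7, and for both genes the 2 day 8 libraries were close.

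The 2 day 8 libraries differed by gene group. Of the 26 streak genes 24 were higher in library 1, with a median log2 difference of 0.67 and 10 members more than 2-fold apart, and 14 of 15 endoderm regulators and 20 of 23 visceral endoderm genes were also higher there. Library 2 was the higher one for 14 of 17 blood genes, 19 of 26 endothelial genes and 18 of 22 fibroblast and smooth muscle genes, with median differences of -0.43, -0.51 and -0.41. Cardiac transcription factors were split 12 to 12 (median 0.03) and all genes tested 6708 to 7286 (median -0.01). Fgf8, a streak ligand named after its values were seen, measured 30 and 11 RPKM in libraries 1 and 2, Hba-x 16.9 and 65.1, and the fibrillar collagen Col3a1 8.52 and 34. Over all genes 0.956% were more than 2-fold apart between the day 8 libraries and 0.257% between the day 4 libraries.

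**Figure D3:**
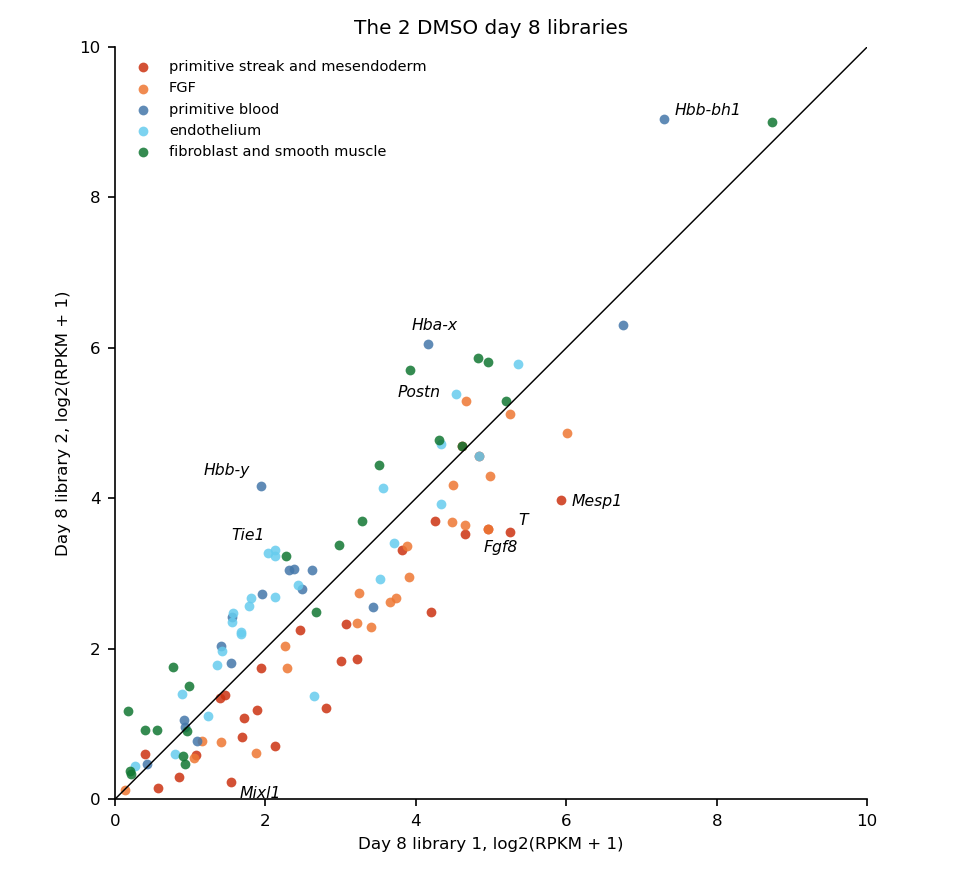
The tested members of 5 gene groups in day 8 library 1 (horizontal) and day 8 library 2 (vertical), both as log2(RPKM + 1), with the line of equal values. Most streak and FGF genes (red, orange) lie under the line, with 24 of 26 and 21 of 22 higher in library 1, and most blood, endothelial and fibroblast genes lie above it.

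Cardiac transcription factors had the highest median change of all groups with at least 10 tested members. Of 24 tested members, 21 rose and 1 fell (Hopx, a homeodomain-only cofactor, whose call was lost without day 4 library 2 or day 8 library 2), with a median of 2.40. Beside Hand1 and Hand2, Tbx2 rose from 0.0636 and 0.0911 to 14.1 and 19.9 RPKM (4.05 ± 0.17, limma adjusted p = 2e-07), and Gata6 from 1.03 and 0.493 to 29.8 and 30.2. Gata4, a zinc finger factor of heart and endoderm, measured 4.19 and 2.61 at day 4 and 27.5 and 16 at day 8 (2.35 ± 0.52, adjusted p = 0.0052). Nkx2-5, the homeobox factor of committed heart cells, reached 1.28 and 0.524 RPKM from 0.149 and 0.0913 (0.73 ± 0.17, adjusted p = 0.0062), so it rose to a level far below those of the Hand genes. Isl1, a factor of the second heart field, rose from 0.269 and 0.184 to 17 and 10.9.

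Contractile genes followed, with 18 of 23 tested members higher, 1 lower and a median of 1.19. Tnni1 was the furthest; Actc1, cardiac alpha-actin, rose from 0.0776 and 0.159 to 11.3 and 8.56 RPKM (3.28 ± 0.29), Tnnt2, cardiac troponin T, from 0.0905 and 0 to 5.59 and 2.6 (2.22 ± 0.23), and Myh7, the slow and embryonic ventricular myosin heavy chain, from 0.126 and 0.0808 to 6.45 and 4.66. Myl4 and Tnnc1, named after their values were seen, reached 29.4 and 40.2 RPKM and 37.7 and 39.4 RPKM, from under 1 RPKM at day 4. Myh6, the atrial and adult mouse isoform, moved less, from 0.941 and 0.831 to 2.17 and 1.81. Actn2, sarcomeric alpha-actinin, fell from 2.2 and 1.96 to 0.53 and 0.306 (-1.12 ± 0.16), and 4 members were not called. Of the small skeletal muscle list (6 tested) 3 rose and 2 fell, with fewer falls when any 1 of the 4 libraries was left out. Acta1, the skeletal actin, went from 0.396 and 0.915 to 17.6 and 35.8 RPKM. The members that fell were Actn3 and Mylpf, with log2 changes of -1.52 and -1.11. Myod1, Myf5, Myf6 and Myog of this list were not tested.

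Embryonic blood genes rose in 14 of 17 tested members, with 1 lower (0 without day 4 library 2) and a median of 1.55. Hba-x, whose promoter is printed above, had 0.0944 and 0 RPKM at day 4 and 16.9 and 65.1 at day 8 (5.04 ± 0.43, limma adjusted p = 1.9e-05). Hbb-y, the epsilon-type globin, had no read at day 4 and 2.85 and 17 RPKM at day 8, at least 11.4-fold and 67.9-fold above the same floor. Globins of a cluster are alike in sequence, so reads may be split between them in ways the deposited values do not show. Regulators of the lineage were low but moved together, with Tal1 at 4.62 and 5.91 RPKM after 0.397 and 0.38, and Gata1 and Klf1, marker genes of red cells, at 1.66 and 3.12 and at 1.94 and 4.35 after less than 1 RPKM. The adult globins and Ptprc, the leukocyte antigen CD45, were not tested. Of 14 macrophage genes 3 were tested and 1, Cd68, was called higher (0 without any 1 of the 4 DMSO libraries), and the defining markers Csf1r, Adgre1 and Tyrobp were not tested.

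Endothelial genes rose in 20 of 26 tested members and fell in 0, with a median of 1.46. For endothelial, mesenchymal switch, Hox and hypoxia genes, 0 members were lower by limma, 0 at an unadjusted p under 0.05 and 0 by limma-voom on the recovered reads; for endoderm regulators and trophoblast genes these counts were 0, 1 and 1. Kdr, the VEGF receptor that also marks blood and heart progenitors, had the smallest p of the group (4.56 ± 0.15, adjusted p = 3.6e-08), followed by Aplnr, the apelin receptor, which rose from 0.111 and 0.0911 to 19.1 and 14.2 RPKM. The decoy-type receptor Flt1 went from 0.63 and 0.605 to 12.1 and 9.63, and the ETS factor Fli1 from 0.0357 and 0.0292 to 2.19 and 3.57. Among the junction and surface markers, Cdh5 measured 3.36 and 5.45 RPKM after 0.0426 and 0.0233, and Pecam1 10.8 and 16.6 after 4.88 and 4.16. Pecam1 is also expressed by pluripotent cells and stood at 36.5 and 44.8 RPKM in DMSO ES cells.

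Genes of the switch from epithelium to mesenchyme rose in 16 of 17 tested members, with a median of 2.32, and none was called lower by limma. The zinc finger repressor Snai2 rose from 0.112 and 0.0685 to 11.6 and 9.57 RPKM (3.41 ± 0.20, limma adjusted p = 1.7e-06), the cadherin Cdh11 from 0.288 and 0.317 to 24.4 and 28.5, and the intermediate filament Vim from 33.5 and 36.7 to 425 and 512. Of 24 epithelial genes 9 fell and 3 rose. E-cadherin (Cdh1) fell from 150 and 139 to 36.5 and 36.8 RPKM (-1.95 ± 0.17) and Epcam from 185 and 189 to 72.2 and 77.1 (-1.31 ± 0.18). The 3 rises were keratins of simple epithelium, Krt19 from 6.56 and 7.24 to 203 and 289, Krt8 from 18.4 and 27.8 to 229 and 325 and Krt18 from 58.3 and 79.6 to 402 and 482 RPKM. The other 12 tested members, claudins among them, were not called. The count of epithelial falls was 4 or 5 without any 1 DMSO library.

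Connective tissue genes rose too. Of 22 fibroblast and smooth muscle genes 14 rose (9 without day 8 library 2) and 2 fell (1 without day 4 library 1 or either day 8 library), median 1.19, and of 37 collagen and matrix genes 25 rose and 1 fell (0 without day 4 library 2 or day 8 library 1), median 1.57. Postn, the matrix protein periostin, went from 0.12 and 0.0703 to 14.1 and 51 RPKM, and Col1a1 from 0.487 and 0.383 to 16.7 and 31.5. Laminin alpha 4 (Lama4) rose from 0.309 and 0.422 to 10.9 and 13.5, Col9a1 from 0.137 and 0.101 to 9.45 and 17.1 and fibronectin (Fn1) from 25.1 and 19.1 to 168 and 120. Thy1, in the list as a fibroblast marker, fell from 4.99 and 5.18 to 0.877 and 0.493. These lists also mark the feeder cells. Their summed level over the 22 fibroblast and smooth muscle genes was 248 and 279 RPKM in DMSO ES cells, 70.1 and 74.9 at day 4 and 616 and 829 at day 8, and the part of feeder cells in these levels was not tested.

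Endoderm regulators rose in 9 of 15 tested members and fell in 0 by limma (1 without day 8 library 1), with a median of 1.01. Sox17, an HMG-box factor of endoderm and endothelium, measured 1.26 and 0.351 RPKM at day 4 and 10.5 and 6.63 at day 8 (2.43 ± 0.52, adjusted p = 0.0041). Hnf4a, a nuclear receptor of visceral endoderm and liver, rose from 0.182 and 0.0896 to 3.87 and 2.29, and Foxa2, a forkhead factor of definitive endoderm in the marker list, from 1.12 and 0.528 to 7.42 and 4.04. In the list of visceral endoderm and hepatic secreted genes, not all of whose members are secreted, 17 of 23 tested members rose and 2 fell, median 1.72. Afp, alpha-fetoprotein, went from 0 and 0.111 to 15.2 and 9.02 RPKM (3.59 ± 0.19, adjusted p = 8.1e-07), the lipocalin Apom from 0.317 and 0.259 to 13.8 and 10.9, and the retinol carrier Rbp4 from 1.66 and 1 to 23 and 17.3. Apoa1, the main HDL protein and a marker of endoderm here, measured 12.1 and 11.6 at day 8 after 0.401 and 0.282. Of the 2 members that fell, Tdh, threonine dehydrogenase, went from 85.9 and 77.8 to 11.7 and 6.67 RPKM. Tdh is a metabolic enzyme of ES cells, and is not secreted. Trf, transferrin, was the other, with a mean of 1.93 RPKM at day 4 and 0.530 at day 8 (-0.94 ± 0.17, limma adjusted p = 0.0015).

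Trophoblast genes rose in 12 of 18 tested members and fell in 0 by limma (1 without day 8 library 1), with a median of 1.64. The members with the smallest p were Hand1, Bmp4, Phlda2 (7.91 and 6.23 to 48.5 and 41.4 RPKM) and Plac1. The first 3 also belong to cardiac, BMP and imprinted lists. Cdx2, Krt8 and Krt18, which rose too, are likewise members of other lists. Elf5, Gcm1, Tpbpa and Prl3d1 of this list were not tested, and Eomes was not called. Prl2c2, named after its values were seen, had 0 RPKM at day 4 and at day 8. Plac1, a placental gene with no read at day 4, measured 2.12 and 2.43 RPKM at day 8. With genes that had no read at day 4 set to their floor, the median of this group was 1.55, and the medians of the cardiac, blood, endothelial and Hox groups were the same as without it.

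**Figure D4:**
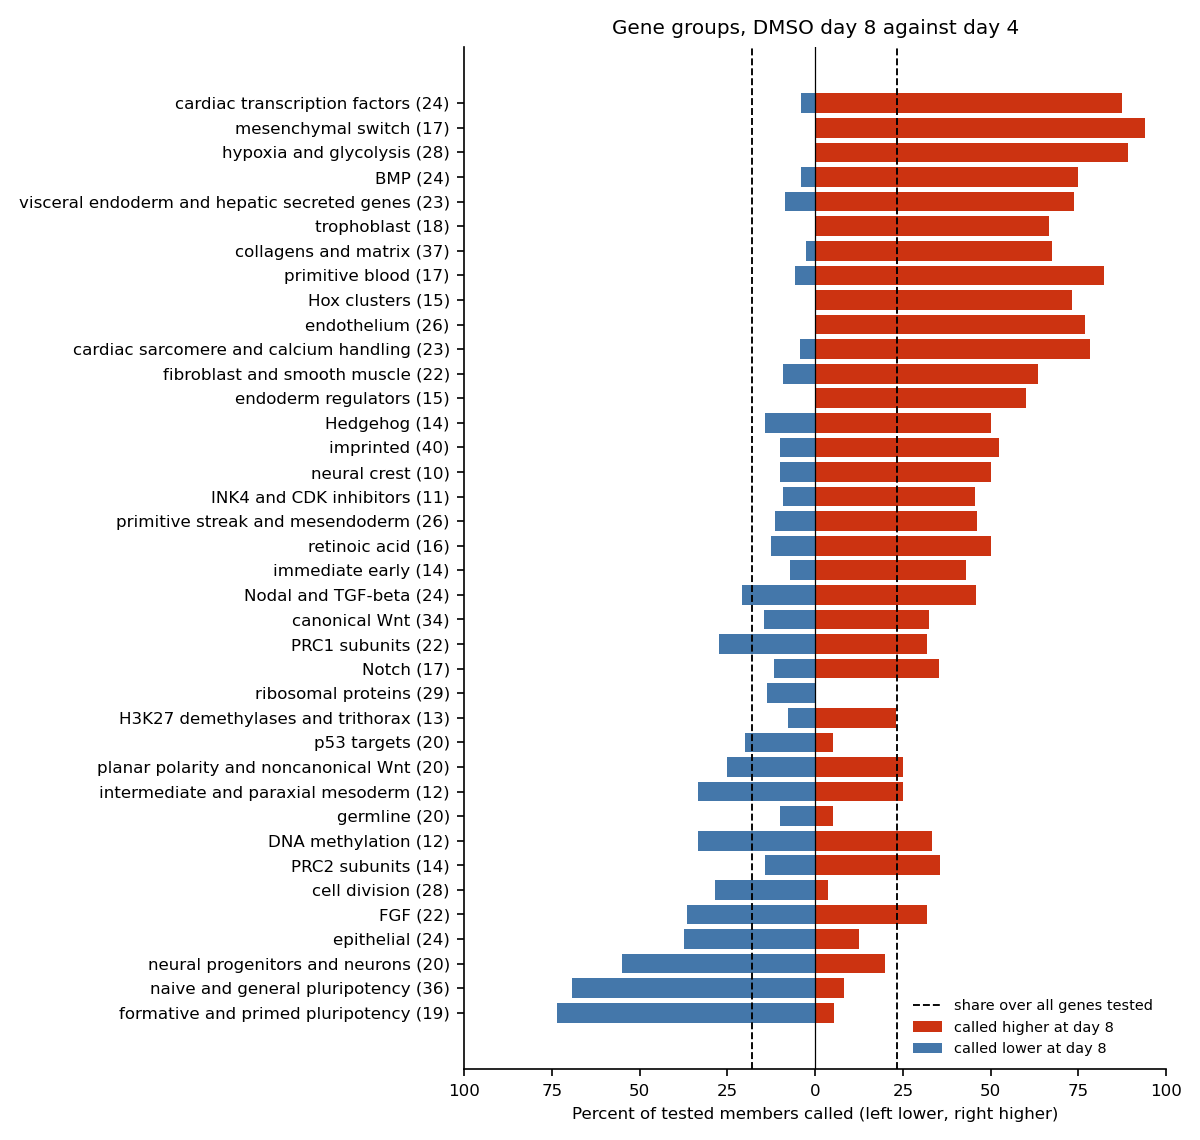
Percent of tested members (number in brackets) called higher (red, right) or lower (blue, left) at day 8 for the groups with at least 10 tested members, ordered by median change, with dashed lines at the 23.3% and 18.1% of all genes. Cardiac factors, mesenchymal, hypoxia and BMP groups reach past 70% higher, and both pluripotency groups reach about 70% lower.

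Hox genes, the homeobox genes of axial position, are ordered in clusters from anterior (low numbers) to posterior. Of 15 tested, 11 rose and 0 fell by limma, with a median of 1.46. Hoxb2 had no read at day 4 and 8.93 and 10.6 RPKM at day 8 (3.42 ± 0.17, limma adjusted p = 5.6e-07), at least 94.2-fold and 111-fold above the floor in the 2 libraries. Hoxb3 rose from 0.0152 and 0.125 to 5.12 and 4.52, Hoxd8 from 0.0262 and 0.0215 to 4.17 and 3.99 and Hoxd9 from 0.0539 and 0 to 2.9 and 2.15. The 4 that were not called, named after their values were seen except Hoxb13, were Hoxb7, Hoxb9, Hoxb13 and Hoxd13, whose day 8 means were 0.545, 0.14, 0.0222 and 0.323 RPKM. So within clusters B and D the tested genes that rose were the lower-numbered ones. The other 24 of the list of 39, among them most of cluster A and the whole of cluster C, were not tested.

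Neural genes went the other way, with 11 of 20 tested members lower and 4 higher, median -0.71. Tubb3, neuronal tubulin, fell from 55.9 and 66.7 to 7 and 6.66 RPKM (-2.99 ± 0.17, limma adjusted p = 1.3e-06), and Stmn3 and Ina, a stathmin and an internexin, had log2 changes of -2.41 and -2.92. Pax6, a homeobox factor of neural progenitors, stayed near the limit of detection at 0.333 and 0.282 against 0.396 and 0.132 (adjusted p = 0.77), and Sox1 had 0.196 and 0.299 against 0.347 and 0.692 (adjusted p = 0.38). Of the members that rose, Isl1 is also a heart factor and Ncam1 (0.417 and 0.365 to 4.02 and 4.76) is also expressed in mesoderm. Sox2 and Sox3, which fell, also belong to the pluripotency groups above, and Sox3 is named after its values were seen. In the neural crest list (10 tested) 5 rose and 1, Foxd3, fell. These are shares of 50% and 10%, beside the 23.3% and 18.1% of all genes. Msx2, Msx1 (0.674 and 1.01 to 14.9 and 18 RPKM), Snai2 and Ets1 led the rises, and the first 2 are at the same time BMP targets.

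In the list of intermediate and paraxial mesoderm 3 of 12 rose, a share of 25% near the 23.3% of all genes, and 4 fell (1 without day 4 library 1, 2 without either day 8 library), with a median of 0.00. Foxc1 rose from 0.27 and 0.198 to 7.11 and 4.64 RPKM and Tcf15, the bHLH factor Paraxis, which ES cells also express, fell from 57.2 and 49.8 to 3.4 and 2.14. Germline genes were mostly not called, with 1 of 20 higher (0 without either day 4 library or day 8 library 1) and 2 lower, Tdrd1 (-1.26) and Ddx4 (-1.31). Tdrd1 is a Tudor protein and Ddx4 an RNA helicase of germ cells.

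Imprinted genes, expressed from 1 parental copy, rose in 21 of 40 tested members and fell in 4, with a median of 0.79. After H19 and Igf2, the zinc finger gene Peg3 rose from 7.61 and 7.07 to 147 and 170 RPKM (4.25 ± 0.18, limma adjusted p = 2.3e-07) and Dlk1, a Notch-like membrane protein, from 0.247 and 0.212 to 9.52 and 13.8. Peg10, named after its values were seen, rose from 17.6 and 17 to 185 and 191. Airn, antisense to Igf2r, rose from 0.0518 and 0 to 6.98 and 6.28; the sources used here do not say whether counting used strand, so its reads and those of Igf2r cannot be told apart. The falls were Impact (175 and 160 to 76.6 and 73.1), Magel2 (9.91 and 11.4 to 1.74 and 1.5), Grb10 (43.9 and 53.9 to 10.5 and 16.9) and Mirg, whose call was lost when any 1 of the 4 libraries was left out. Copies from the 2 parents cannot be told apart in these values.

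The core PRC2 genes Ezh2, Eed and Suz12 did not pass the test. Ezh2, the catalytic subunit, measured 46.3 and 35.3 RPKM at day 4 and 46.7 and 37.4 at day 8 (0.05 ± 0.23, limma adjusted p = 0.89), and Eed and Suz12, named after their values were seen, changed by -0.38 and -0.12 with adjusted p of 0.19 and 0.79. Of 14 PRC2 genes 5 rose and 2 fell, but without any 1 DMSO library 2 or 3 rose and 0 or 1 fell. With all libraries the shares were 35.7% and 14.3%, beside the 23.3% and 18.1% of all genes. Rbbp7, a histone-binding subunit shared with other complexes, kept its call and rose from 143 and 139 to 357 and 403 RPKM (1.42 ± 0.13, limma adjusted p = 3e-05). Ezh1, the second catalytic subunit, measured 9.35 and 9.55 against 18.9 and 18.6 RPKM (limma adjusted p = 0.013). Its call was lost when any 1 of the 4 libraries was left out. Those fits take the lone library of that day to vary like the other groups.

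In PRC1, the complex that reads H3K27me3 through its CBX subunits, 7 of 22 genes rose and 6 fell. These are shares of 31.8% and 27.3%, beside the 23.3% and 18.1% of all genes. Cbx7, the CBX of ES cells, fell from 31.6 and 36.2 to 13.7 and 11.2 RPKM (-1.38 ± 0.20), with Cbx6 (-1.30) and the polyhomeotic subunit Phc1 (70.7 and 66.9 to 15.5 and 13.2 RPKM). Cbx8 rose from 1.1 and 0.466 to 8.48 and 8.6 (2.44 ± 0.18), and the PCGF subunits Pcgf5 and Bmi1 from 6.08 and 5.16 to 42.3 and 30.7 and from 2.28 and 1.3 to 9.71 and 8.49. In both day 8 libraries Cbx7 was still above Cbx8 per length, by less than at day 4. Cdkn2a, the INK4A/ARF locus that Polycomb restrains in many cells, measured 4.14 and 2.37 against 3.54 and 2.91 RPKM (limma adjusted p = 0.96). Of 11 CDK inhibitor and related genes 5 rose, among them Cdkn1c (1.15) and Cdkn2c (1.25), and 1, Trp53, fell (-0.86). The shares in that list were 45.5% and 9.09%, beside the 23.3% and 18.1% of all genes.

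DNA methylation genes were split, with 4 of 12 higher (2 without any 1 DMSO library) and 4 lower (2 without day 4 library 1). Each share was 33.3% with all libraries, beside the 23.3% higher and 18.1% lower of all genes. Dnmt3l, the cofactor of de novo methylation, fell with Dnmt3b, from 13.4 and 10.5 to 1.48 and 1.15 RPKM (-2.48 ± 0.17). The methyl-binding protein Mbd2 rose from 5.95 and 5.6 to 14.1 and 17.8. Of 13 H3K27 demethylase and trithorax genes 3 rose (1 without either day 4 library or day 8 library 1) and 1, Kdm4c, fell, shares of 23.1% and 7.69% that are no higher than the 23.3% and 18.1% of all genes.

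The authors marked genes as PRC2 targets or not, and 13222 of the 14016 tested genes had such a mark. Genes without it included Hbb-bh1, Hba-x, Tnni1 and Mesp1. Of the marked genes 30.6% were targets, against 42.4% of the 3021 marked genes that rose and 32.5% of the 2395 that fell. Among marked genes with changes above 1 log2 unit the shares were 56.9% and 45.5%. Seen from the other side, 31.7% of targets rose and 19.3% fell, with a median change of 0.14. Of the other marked genes 19% rose and 17.6% fell, with a median of 0.01. Targets were also the less expressed genes, with a median of 3.19 RPKM at day 4 against 12.3 for the others, and the part of expression level in these shares was not tested. For a start site within 1 kb of a merged wild-type H3K27me3 peak the shares were 23.9% of 11080 genes with a start, 36.4% of those that rose and 27.2% of those that fell, and for Ring1B, the catalytic subunit of PRC1, 3.92%, 6.22% and 3.75%. The peaks come from wild-type cells at 3 stages merged, so they do not say at which stage a mark was present.

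Genes of glycolysis and the response to low oxygen rose in 25 of 28 tested members and fell in 0 by limma, with a median of 1.84. The prolyl hydroxylase P4ha1 rose from 9.8 and 8.1 to 140 and 120 RPKM (3.72 ± 0.20, limma adjusted p = 9e-07), the oxygen sensors Egln3 from 4.15 and 4.19 to 40.6 and 38.2 and Egln1 from 13.8 and 12.6 to 74.4 and 68.3, and the stress gene Ndrg1 from 3.33 and 3.93 to 57.4 and 50.4. Slc2a3, the glucose transporter GLUT3 and named after its values were seen, went from 130 and 126 to 1042 and 929. Day 4 was the low point. The mean over the 28 genes on the log2(RPKM + 1) scale was 6.20 and 6.38 in ES cells, 4.93 and 4.91 at day 4 and 6.78 and 6.75 at day 8. Immediate early genes rose in 6 of 14 members and fell in 1, Ier2, shares of 42.9% and 7.14% beside the 23.3% and 18.1% of all genes. The Ier2 call was lost without either day 4 library or day 8 library 2. Hspa1a, a heat shock gene of that list, reached 19.3 and 6.03 RPKM after 0.465 and 0.53.

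Cell division genes moved little, with 8 of 28 lower and 1 higher, median -0.14. These are shares of 28.6% and 3.57%, beside the 18.1% lower and 23.3% higher of all genes. The lower count was 5, 2, 2 and 4 and the higher count 0 when day 4 libraries 1 and 2 and day 8 libraries 1 and 2 were left out in turn. Ccne1, cyclin E1, was the exception in size, falling from 79.6 and 92.5 to 13.7 and 15 RPKM (-2.50 ± 0.24, limma adjusted p = 3.3e-05). Mcm2, of the replication helicase, fell by 0.75. For p53 targets and ribosomal protein genes the shares that fell, 20% and 13.8%, lay near or below the 18.1% of all genes. Of 20 p53 targets 1 rose and 4 fell (2 without day 4 library 2, 1 without day 8 library 1), and of 29 ribosomal protein genes, which have many pseudogene copies, 0 rose (0 at an unadjusted p under 0.05 and 0 by limma-voom) and 4 fell (2 without day 8 library 2) by limma.

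The same step in untreated wild-type embryoid bodies, tested in its own table with 3 libraries a group, gave 1501 genes higher (10.6%) and 1441 lower (10.2%) of 14180, together 20.7%. Of the DMSO genes tested there, 41.5% of those that rose and 49.7% of those that fell were called the same way, 0 were called the opposite way, and the shared genes made up 91.2% and 86.7% of the wild-type calls. Without the third wild-type libraries 1893 genes were higher and 1809 lower in wild type. The same shares were then 52.6% and 61.7% of the DMSO calls and 92.7% and 86.1% of the wild-type calls. Over 13792 genes the log2 changes of the 2 steps correlated at r = 0.947, and at 0.945 without those libraries, a description across genes with no test. The tables were normalized separately, so differences in size were not tested. Streak genes had wild-type changes of 0.45 for T, 0.60 for Cdx2 and 1.75 for Mesp1 beside 3.44, 3.88 and 4.85 in DMSO. Without the third libraries the wild-type changes were 1.14, 1.10 and 2.58. The median of the streak list in wild type was -0.01 with them and 0.14 without, beside 0.63 in DMSO, and that of cardiac factors 2.04 and 3.02, beside 2.40.

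Under GSK343, 91 genes rose (0.649%) and 8 fell (0.0571%) between day 4 and day 8 by limma, together 0.706%. These counts turned on GSK343 day 8 library 1, which lay close to day 4: without it 1181 genes rose (8.43%) and 429 fell (3.06%), in a fit that takes the lone day 8 library to vary like the other groups. Group medians under GSK343, with all libraries and then without that one, were 0.08 and 0.05 for cardiac factors beside 2.40 in DMSO, and 0.17 and 0.01 for BMP genes beside 1.75. For pluripotency genes they were 0.05 and 0.40 beside -1.21, and for formative genes -0.45 and -0.93 beside -2.45. For hypoxia and glycolysis genes they were 1.02 and 1.16 beside 1.84, with 11 and 18 of 28 called higher. The step differed from that in DMSO for 1709 genes (12.2%), 796 with a higher (5.68%) and 913 with a lower (6.51%) change under GSK343. Which direction was the more frequent depended on the settings: it was higher with a pseudocount of 0.1 (868 against 752), a stricter filter (661 against 489), centring (900 against 848), limma-voom (784 against 681) and the replicate block (1464 against 1431). The number of differing genes was 1914 without GSK343 day 8 library 1, 896 without DMSO day 4 library 1, 847 without DMSO day 4 library 2, 1076 without DMSO day 8 library 2 and 996 without GSK343 day 4 library 1.

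**Figure D5:**
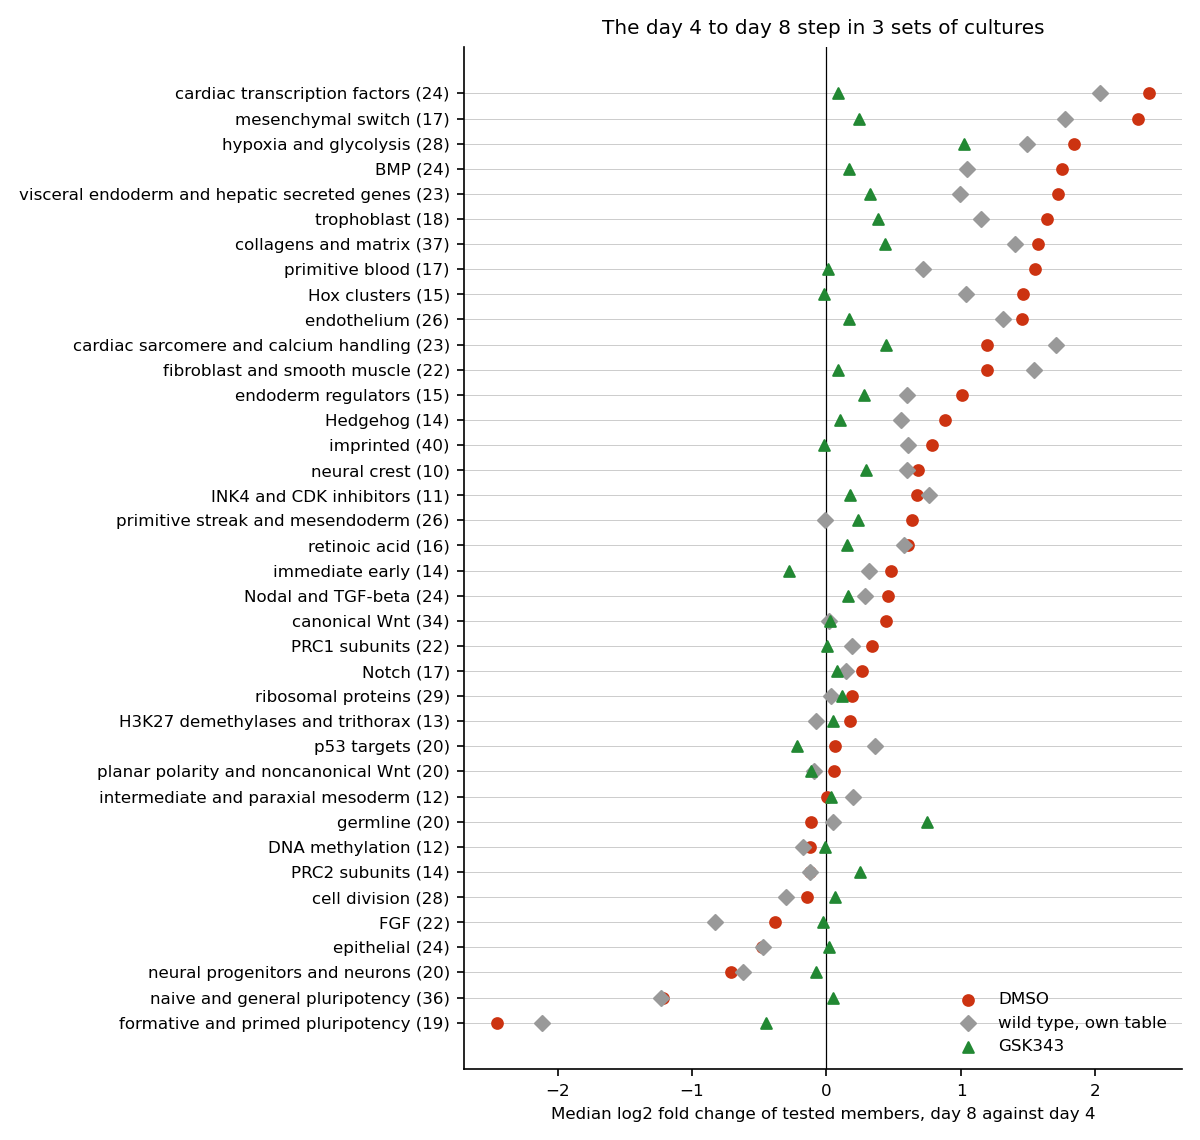
Median log2 change from day 4 to day 8 over the tested members (number in brackets, DMSO table) of each gene group in DMSO (circles), untreated wild-type (diamonds, separately normalized table) and GSK343 (triangles) embryoid bodies. Wild-type medians lie near those of DMSO for most groups, 2.04 beside 2.40 for cardiac factors, and GSK343 medians, with all libraries, lie nearer 0 for most groups, with germline genes an exception.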

How the data were processed

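RNA-seq of 4 DMSO embryoid body samples was used, with 2 libraries at each day. The values are RPKM deposited by the authors; the submitters' processing notes name STAR 2.5.3, featureCounts 1.6.1 and edgeR, without their settings. The authors' deposited table also gives a log2 fold change and an adjusted p-value (FDR) for this step: 3051 genes were higher and 2579 lower at an FDR under 0.05, of which 2593 and 2017 were called the same way here. RPKM steps gave whole reads for every value within 0.02, which gave the depths.

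limma 3.58.1 in R 4.3.3 was fitted to log2(RPKM + 1) over the 6 groups of the table, with an intensity trend and Benjamini-Hochberg adjustment over 14016 of 14607 genes. The GSK343 comparison is the interaction in that fit. The wild-type table was fitted alone (14180 of 14772 genes). The fit was tested on simulated data. Fold bounds use a floor of 3 reads per library and cover counting error only.

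The gene lists and members were chosen with earlier results of these data known. Genes named are the 12 largest rises and falls with a mean of at least 5 RPKM and no overlap, up to 4 called members with the smallest p per list and direction, a set of lineage markers, and the 5 largest interactions in each direction; others are said to be chosen after their values were seen. Alternatives changed the pseudocount, filter, centring, model and libraries, and those on lists, peaks at start sites, the third wild-type libraries and, for the GSK343 step, its day 8 library 1 were chosen after seeing the data.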

Additional observations from a re-analysis of the deposited data

Results flagged for a closer look

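The change from day 4 to day 8 differed between GSK343 and DMSO by the interaction test in limma for 796 genes with a higher and 913 with a lower change under GSK343. These are 5.68% and 6.51% of the genes tested. The higher ones were the more frequent with a pseudocount of 0.1 (868 against 752), a stricter filter (661 against 489), centring (900 against 848), limma-voom (784 against 681) and the replicate block (1464 against 1431).

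Among the higher ones, the difference in log2 change was 4.64 for Platr10, 4.07 for Lefty1, 4.02 for L1td1, 3.91 for Pdzd4 and 3.89 for Utf1. Platr10, a noncoding RNA of pluripotent cells, measured 47.5 and 67.4 RPKM at day 4 and 50.3 and 51.6 at day 8 under GSK343. Utf1, a chromatin factor of ES cells, measured 135 and 132 against 119 and 132. Both had fallen in DMSO.

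Among the lower ones, the difference was -8.48 for Hbb-bh1, -6.09 for Nrp1, -5.51 for Hand2, -5.40 for Hand1 and -5.28 for Hba-x. Under GSK343 the day 8 libraries held 0.0745 and 0.177 RPKM of Hbb-bh1, 0.264 and 0.0482 of Hand2 and 0.958 and 0.852 of Hand1. They were chosen for the size of this difference.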

How the results depend on the processing

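The balance of directions changed: centring gave 2386 higher and 3720 lower in DMSO, and 5 settings gave more higher than lower interactions. Against 5798 calls in DMSO, the number under the other settings ran from 4863 with a stricter filter to 7326 with the replicate block, and from 3639 to 4231 when 1 DMSO library was left out. Calls that held in all 4 of those fits numbered 1834 higher and 1289 lower. Of 226 named genes called, 41 lost the call without at least 1 DMSO library.

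For the interaction the count was 1709, 2895 with the replicate block and 847 to 1914 when 1 library was left out. The labels do not say whether replicate numbers 1 and 2 pair the samples, and the main fit used no pairing. The differences between libraries 1 and 2 correlated over genes at r = 0.386 between DMSO day 4 and day 8 and 0.382 under GSK343. So the numbers may mark a shared structure that the main fit leaves out, which was not tested further than by the replicate block. Among genes with an annotated start, the shares with a start site near H3K27me3 peaks were 36.4% of those that rose and 27.2% of those that fell. With 2 libraries per group, genes of low RPKM limit what can be called. A fit without 1 DMSO library leaves 1 library in that group and takes it to vary like the other groups.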
